A study of Mus musculus with 6 samples.

Results

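The genes described are 35 genes of the G1/S transition and of DNA replication in the embryonic mouse head: cyclins, cyclin-dependent kinases (CDKs) and the phosphatase gene Cdc25a (9 genes), the E2F and RB families (8), the genes that load and activate the replicative helicase (12), and genes of DNA synthesis and nucleotide supply (6). A gene was read from a probe set that the platform annotation gives to that gene alone, and from the probe set with the highest mean where there were several. All 35 were found that way and all 35 were bright enough to be tested, out of 11802 genes tested on the array.

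The tissue was the dissected forebrain and midbrain of single embryos on a C57Bl6 background at E10.5. There were 3 heads labelled Tasp1 knockout (Tasp1-/-) and 3 labelled wild type (WT), all from crosses between Tasp1+/- parents, with 1 array per head. Tasp1 encodes Taspase1, a protease that cleaves histone methyltransferases of the MLL family and the large precursor of the general transcription factor TFIIA. The labels do not describe the knockout allele. The study set out to find genes that Taspase1 regulates in development, and the comparison here asks how the cell cycle entry and replication genes read in the absence of Taspase1. A positive difference, in log2 units of signal, means a higher mean in the KO-labelled heads.

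A cell commits to S phase when D-type cyclins with CDK4 or CDK6, and then E-type cyclins with CDK2, phosphorylate RB and its relatives, which releases E2F transcription factors. E2F factors in turn raise transcription of cyclin E, of the MCM helicase, of its loading factors and of enzymes that make deoxynucleotides. At this stage the walls of the forebrain and midbrain are a fast-dividing neuroepithelium in which these genes are widely expressed. Fibroblasts that lack Taspase1 are known to divide poorly, with less cyclin E and A and more CDK inhibitor.

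The 6 arrays were alike, with correlations across genes between 0.989 and 0.996 and medians between 7.35 and 7.45. WT 1 lay farthest from the rest on the first principal component. Xist was bright (12.3) in WT 2 alone, where Y-linked genes were dim, and stood at 4.90 to 5.24 elsewhere, so the sexes were not balanced between groups. The Tasp1 signal was 8.63, 8.63 and 8.50 in KO-labelled heads and 8.10, 8.45 and 8.49 in WT-labelled heads. The sources used here do not say whether this probe set covers deleted exons, so its level is no check of the labels. Of the markers that define the dissected tissue, all 10 of neural progenitors and 7 of forebrain and midbrain patterning were bright enough to be tested.

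Many of these genes carry an E2F motif close to their start. RefSeq promoter windows (build GRCm38.p6, 250 bases before to 50 after the annotated start) were on hand for 28 of the 35. The 4 motif versions TTTCCCGC, TTTGCCGC, TTTGGCGC and TTTCGCGC were searched on both strands, and 13 of the 28 genes (46.4%) held at least 1, against 4.85% of the 9440 tested genes with a window and 2.6% of all 27025 genes with one. In 2 of the 13 (Mcm5 and Mcm6) an E2F match overlapped another E2F match, and in 1 (Mcm7) it overlapped a CCAAT box. The sites of 6 genes are shown because they stand for the main roles: a pocket protein gene, a CDK gene, a loading factor gene and 3 helicase subunit genes. Capitals mark the motif, read on the strand of the gene.
Rbl1 (chr2:157204534-157204563, minus strand): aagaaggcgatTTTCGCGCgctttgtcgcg
Cdk2 (chr10:128705173-128705202, minus strand): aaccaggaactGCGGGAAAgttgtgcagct
Cdc6 (chr11:98908002-98908031, plus strand): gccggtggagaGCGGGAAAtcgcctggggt
Mcm5 (chr8:75109345-75109374, plus strand): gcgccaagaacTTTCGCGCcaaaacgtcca
Mcm6 (chr1:128359797-128359826, minus strand): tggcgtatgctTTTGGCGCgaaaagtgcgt
Mcm7 (chr5:138172030-138172059, minus strand): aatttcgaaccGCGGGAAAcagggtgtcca

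The first base of the Rbl1 motif lies 18 bases before the annotated start. The Mcm5 and Mcm6 sites each overlap another match on the other strand, and the Mcm6 and Mcm7 windows hold a further match nearer the start or just past it. A match is a description of letters and does not show that a factor binds there. The CCAAT box, a common promoter element, was found in 18 of the 28 windows (64.3%), against 43.1% of the tested genes with a window. On differences between KO-labelled and WT-labelled heads, the 13 genes with an E2F motif had a median of -0.021 and the 15 without one a median of -0.017.

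Over the whole set, transcript levels in KO-labelled and WT-labelled heads lay close together. The median difference of the 35 genes was -0.017, where that of all 11802 genes was -0.0092, and 15 genes lay above 0 and 20 below. In dissected forebrain and midbrain tissue, a different share of dividing cells and a different transcript level per cell cannot be told apart. In limma, 0 of the 35 passed an adjusted p of 0.05, the smallest adjusted p being 0.496 (Rbl1) and the largest 0.996 (Cdc25a). Of the 11802 genes, 0 (0%) passed in limma, where 841 had an unadjusted p under 0.05, and an ordinary linear model also called 0. The 95% confidence interval of the KO over WT signal ratio lay within 1.1-fold either way for 13 members and within 1.2-fold for 31. The 4 with an interval that reached past 1.2-fold were Cdk6, Rbl1, Ccne2 and Gins1, and the intervals of all 35 stayed within 1.5-fold.

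**Figure D1:**
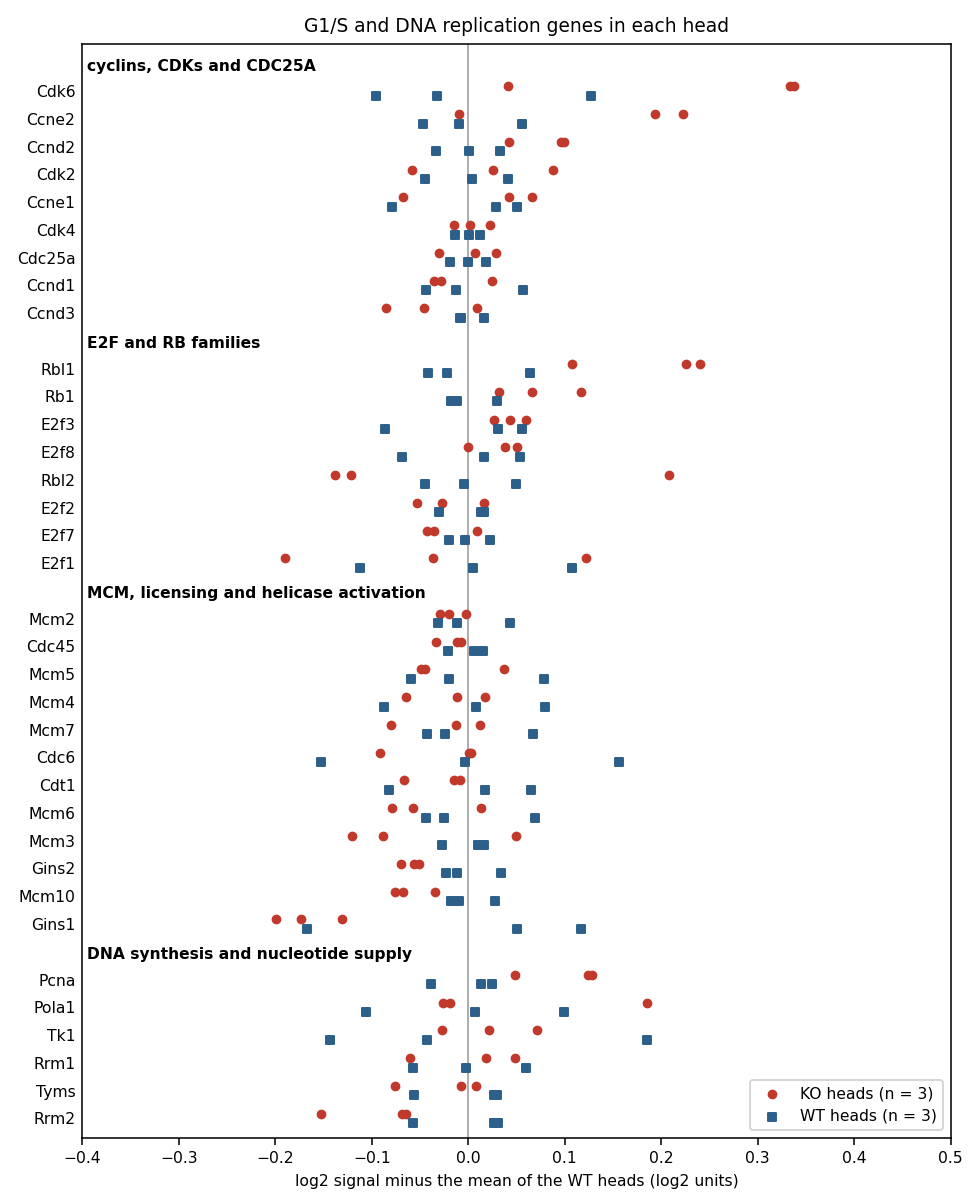
Log2 signal of each of the 35 genes in each head, minus the mean of the 3 WT-labelled heads, by role and ordered by difference. Red circles are KO-labelled heads and blue squares WT-labelled heads. Most genes have both colours interleaved near 0, and Cdk6, Ccne2 and Rbl1 have at least 2 KO-labelled heads well to the right.

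At an unadjusted p under 0.05 stood 6 of the 35 (17.1%), where 7.13% of all genes did. Rbl1, Pcna, Cdk6 and Ccnd2 were on the higher side, where 2.47% of all genes stood, and Gins1 and Rrm2 on the lower side, where 4.65% did. With each array centred on its median, 3 of the 35 were left (Rbl1, Cdk6 and Gins1), and with 1 head left out the count ran from 1 (without KO 2 or KO 3) to 5 (without KO 1). Over the 6 ways of leaving out a head, Rbl1 stayed under that threshold in 6, Pcna in 3, Cdk6 and Ccnd2 in 2 each, and Gins1 and Rrm2 in 1 each, without WT 2. KO-labelled and WT-labelled ranges were separate for 7 of the 35, where 12.3% of all genes had separate ranges. Rbl1, Pcna, Ccnd2 and Rb1 had the KO-labelled range above (4.52% of all genes), and Mcm10, Gins2 and Rrm2 below (7.81%). With median centring, 3 members had separate ranges. The shares of all genes were not computed with median centring or with a head left out, so those counts have no background. The genes were chosen with earlier results of these heads known, so the counts and shares are given without a test of the set.

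**Figure D2:**
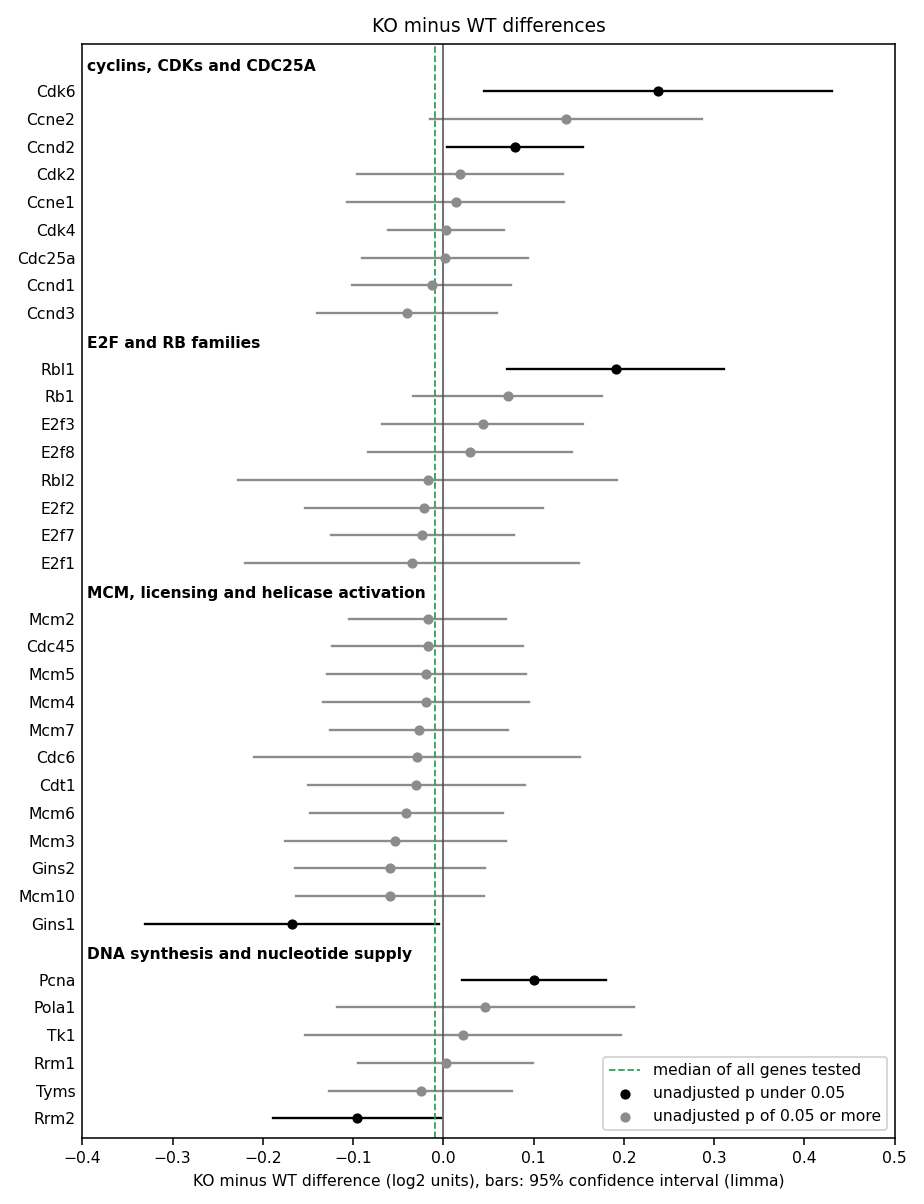
Difference between KO-labelled and WT-labelled heads for each gene, in log2 units, with its 95% confidence interval from limma (n = 3 heads each). The dashed line is the median of all genes tested. Black marks the 6 genes with an unadjusted p under 0.05, led by Cdk6 at +0.24 and Rbl1 at +0.19, and all 12 helicase and licensing genes lie left of 0.

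Among the D-type cyclin genes, whose products couple growth signals to CDK4 and CDK6, Ccnd2 had the smallest p and the only separate ranges. Ccnd2 (probe set 10548105) read 12.77, 12.83 and 12.82 in KO-labelled heads and 12.76, 12.69 and 12.73 in WT-labelled heads. The KO-labelled range lay above the WT-labelled one, but by a gap smaller than the spread within either group (difference +0.079, limma SE 0.034, unadjusted p 0.040, adjusted p 0.675). Ccnd1 differed by -0.013 (95% confidence interval -0.10 to 0.075) and Ccnd3 by -0.040 (-0.14 to 0.059). The difference of Ccnd2 exceeded that of Ccnd1 by 0.092 and that of Ccnd3 by 0.12, in each case with separate ranges of the within-head ratio. For both contrasts the exact permutation test gave a two-sided p of 0.1, the smallest that 3 against 3 heads allow, and 0.2 after Benjamini-Hochberg adjustment over the 6 paralog contrasts made. Each of the 6 contrasts set the paralog with the largest difference of its family against another member of that family. The sign was therefore fixed by the choice, and the p-values do not account for it.

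Of the kinase genes, Cdk6 had the largest difference of all 35 members. Cdk6 (probe set 10519324) read 10.15, 10.45 and 10.44 in KO-labelled heads and 10.01, 10.08 and 10.23 in WT-labelled heads. KO 2 and KO 3 were higher than every WT-labelled head, while KO 1 lay below WT 3, so the groups overlapped. The ratio was 1.18 (95% confidence interval 1.03 to 1.35; limma unadjusted p 0.021, adjusted p 0.648). Without KO 1 the Cdk6 difference was +0.34 in place of +0.24. Its partner in RB phosphorylation, Cdk4, had the narrowest interval of the 35: it read 13.07 to 13.11 in KO-labelled heads and 13.07 to 13.10 in WT-labelled heads, a ratio interval of 0.958 to 1.05. The contrast between Cdk6 and Cdk4 was +0.23, with overlapping ranges (exact permutation test, two-sided p 0.2 and 0.2 after adjustment over the 6 contrasts). Cdk2, the partner of cyclin E, differed by +0.018 (-0.096 to 0.13). Cdc25a, which encodes the phosphatase that activates CDK2, differed by +0.0017 (-0.090 to 0.093).

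The E-type cyclins, which drive CDK2 at the entry into S phase, showed a similar split. Ccne2 read 9.78, 10.01 and 9.98 in KO-labelled heads, against 9.84, 9.74 and 9.78 in WT-labelled heads. As for Cdk6, KO 2 and KO 3 were the highest heads and KO 1 lay among the WT-labelled ones (difference +0.14, limma SE 0.067, unadjusted p 0.072, adjusted p 0.738). Ccne1 read 10.57 to 10.70 in KO-labelled heads and 10.56 to 10.69 in WT-labelled heads, a difference of +0.014 (95% confidence interval -0.11 to 0.13). The Ccne2 difference exceeded the Ccne1 difference by 0.12, with separate ranges of the ratio of the paralogs in KO-labelled and WT-labelled heads (exact permutation test, two-sided p 0.1 and 0.2 after adjustment). As a group, 7 of the 9 cyclin, CDK and phosphatase genes lay above 0 with the deposited scaling, where 5267 of all 11802 genes did. With median centring, which moves every gene down alike, 3 of the 9 did, and 3660 of all genes. With 1 head left out, 4 to 7 of the 9 did, and 4841 to 6084 of all genes. The median of the 9 with the deposited scaling was +0.014.

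**Figure D3:**
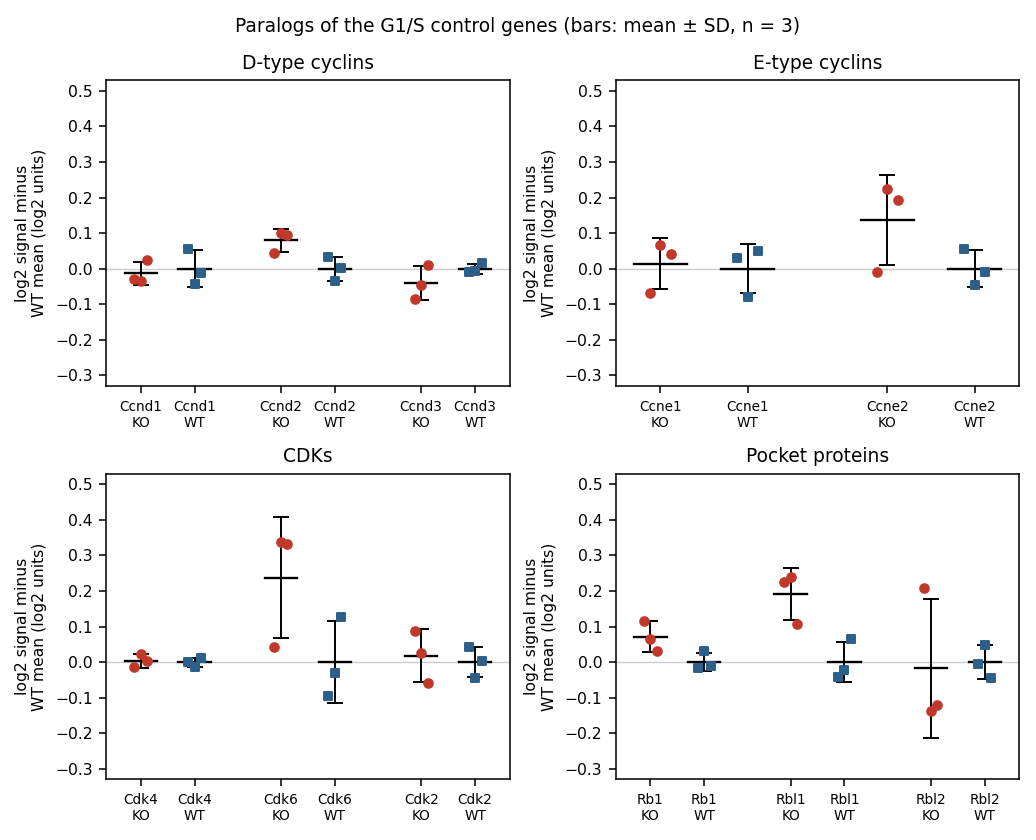
Log2 signals of D-type cyclins, E-type cyclins, CDKs and pocket protein genes in each head, minus the mean of the WT-labelled heads. Red circles are KO-labelled and blue squares WT-labelled heads, and bars give the mean ± SD (n = 3 each). Cdk6 and Ccne2 have 2 KO-labelled heads apart from KO 1, and Rbl2 has KO 1 apart from the other 2.

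The pocket proteins restrain E2F until CDKs phosphorylate them: RB binds mainly the activating E2Fs, p107 (Rbl1) and p130 (Rbl2) mainly the repressive ones. Rbl1 had the smallest p of the 35. Rbl1 (probe set 10489127, chromosome 2) read 10.40, 10.42 and 10.29 in KO-labelled heads and 10.14, 10.16 and 10.24 in WT-labelled heads. Every KO-labelled head was above every WT-labelled head (10.37 ± 0.073 against 10.18 ± 0.056, SD, n = 3 each; ratio 1.14, 95% confidence interval 1.05 to 1.24; limma unadjusted p 0.0054, adjusted p 0.496). With each head left out in turn, the Rbl1 difference ran from +0.17 to +0.23, with an unadjusted p from 0.0025 to 0.028.

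Rb1 read 10.19, 10.14 and 10.11 in KO-labelled heads and 10.06, 10.11 and 10.06 in WT-labelled heads. The ranges of Rb1 were just separate, and its difference of +0.071 did not pass (limma adjusted p 0.796). Rbl2 read 8.30, 7.95 and 7.97 in KO-labelled heads and 8.08, 8.14 and 8.04 in WT-labelled heads. KO 1 alone was high and the other KO-labelled heads were below all WT-labelled ones, so that the mean difference of -0.017 describes none of the 3. The Rbl1 difference exceeded that of Rb1 by 0.12 and that of Rbl2 by 0.21, in both cases with overlapping ranges of the ratio (exact permutation test, two-sided p 0.2 and 0.2 after adjustment, for each).

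The E2F genes differed little on average. E2f1, E2f2 and E2f3 encode the activating factors. E2f1 read 10.09, 9.93 and 9.78 in KO-labelled heads and 9.85, 9.97 and 10.07 in WT-labelled heads, so the KO-labelled heads spread over the whole WT-labelled range. E2f2 differed by -0.021 and E2f3 by +0.044, and the second E2f3 probe set by +0.069. E2f7 and E2f8, which encode repressors that switch E2F targets off later in S phase, differed by -0.023 and +0.029. Adjusted p-values of the 5 E2F genes in limma lay between 0.896 and 0.964.

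The helicase and licensing genes all had mean differences below 0, with a 95% confidence interval that held 0 for each but Gins1. MCM2 to MCM7 form the ring-shaped helicase that CDC6 and CDT1 help load onto origins, and CDC45, the GINS complex and MCM10 turn it on. All 12 genes had a difference below 0, with a median of -0.030, where 55.4% of all genes tested lay below 0. This held with quantile normalization (median -0.042), where 7212 of all 11802 genes lay below 0. Median centring moves every gene down by the same amount, so all 12 could only stay below 0. Their median was then -0.057, and 8142 of all 11802 genes lay below 0. Without WT 1, 8 of the 12 lay below 0, and 3 of the 6 genes of the ring. Without KO 1, 10 of 12 did, without WT 2 or WT 3 11, and without KO 2 or KO 3 all 12. Of all 11802 genes, 6332 lay below 0 without WT 1 and 6734 without KO 1. Over the 6 ways of leaving out a head, that count ran from 5718 (without KO 3) to 6961 (without KO 2). WT 1 was the highest head for these genes as a list (median deviation from the mean of the 6 heads +0.054) and for markers of neural progenitors (+0.12). The part of either in the differences was not tested.

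For the 6 ring subunits, the differences ran from -0.053 (Mcm3) to -0.017 (Mcm2). Their signals interleaved in every case: Mcm2 read 11.26, 11.28 and 11.27 in KO-labelled heads and 11.33, 11.27 and 11.25 in WT-labelled heads. Mcm5, a ring subunit with the promoter site shown, read 10.90, 10.98 and 10.90 in KO-labelled heads and 10.93, 10.89 and 11.03 in WT-labelled heads. Mcm4, Mcm6 and Mcm7 differed by -0.019, -0.041 and -0.027. The 95% confidence intervals of the ratio for the 6 subunits spanned 0.885 (Mcm3) to 1.07 (Mcm4). The loading factor genes Cdc6 (-0.029) and Cdt1 (-0.030) and the helicase cofactor gene Cdc45 (-0.017) were equally close, and for each the groups overlapped.

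Gins1, on chromosome 2, had the largest difference of the 12. Gins1 read 9.46, 9.53 and 9.49 in KO-labelled heads and 9.71, 9.50 and 9.78 in WT-labelled heads. WT 2 lay within the KO-labelled range, and the other WT-labelled heads were above it (difference -0.17, ratio 0.890, limma unadjusted p 0.045, adjusted p 0.687). With 1 head left out, the Gins1 difference ran from -0.25 (without WT 2) to -0.11 (without WT 3). Its partner in the same complex, Gins2, read 9.71, 9.72 and 9.73 in KO-labelled heads and 9.76, 9.77 and 9.81 in WT-labelled heads. The Gins2 ranges were separate, at a difference of -0.059 (limma adjusted p 0.831). Mcm10 likewise had separate ranges, 9.79 to 9.83 in KO-labelled and 9.85 to 9.89 in WT-labelled heads (-0.059, adjusted p 0.826).

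Of the genes that make DNA and its precursors, Pcna and Rrm2 had the smallest p-values and opposite signs. Pcna encodes the sliding clamp of the replicative polymerases. Pcna (probe set 10487930, chromosome 2) read 12.67, 12.76 and 12.75 in KO-labelled heads and 12.65, 12.59 and 12.64 in WT-labelled heads. Each KO-labelled head was above each WT-labelled head (12.73 ± 0.045 against 12.63 ± 0.033, SD, n = 3 each; ratio 1.07, limma unadjusted p 0.019, adjusted p 0.629). A second probe set annotated to Pcna gave values within 0.0083 of the first in every head and a difference of +0.098, so it is no separate measurement. Whether one of the pair reads a copy of Pcna elsewhere in the genome was not tested, and the chromosome given is that of the gene.

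Rrm2, the regulated subunit of ribonucleotide reductase, read 11.81, 11.90 and 11.89 in KO-labelled heads and 11.99, 11.91 and 11.99 in WT-labelled heads. The Rrm2 ranges were just separate, with KO 1 lowest and WT 2 next to the KO-labelled heads (difference -0.095, ratio 0.936, limma unadjusted p 0.045, adjusted p 0.687). Rrm1, the large subunit, differed by +0.0024 (95% confidence interval -0.095 to 0.0997). The thymidylate synthase gene Tyms differed by -0.025 and Pola1, which encodes the catalytic subunit of the primase-polymerase, by +0.047. The probe sets of Tk1, the thymidine salvage kinase gene, disagreed in sign: the brighter one differed by +0.022 and the other by -0.067, with overlapping groups on both. Whether either reads a copy of Tk1 elsewhere in the genome was not tested. Of these 6 genes 4 lay above 0, 2 with median centring, and 1 to 5 with 1 head left out (1 without KO 2). Of all 11802 genes, 5267 lay above 0, 3660 with median centring, and 4841 to 6084 with 1 head left out (4841 without KO 2). With the probe sets of each gene averaged, 3 of the 6 lay above 0, Tk1 no longer among them, where 5290 of 11963 genes did.

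The heads that set the Cdk6 and Ccne2 differences also differed in markers of neurons, cells that have left the cycle. The median deviation of 10 neuronal markers was +0.14, -0.10 and -0.26 in KO 1, KO 2 and KO 3 and +0.12, +0.20 and -0.068 in WT 1, WT 2 and WT 3. KO 3, KO 2 and WT 3, the 3 heads lowest in neuronal markers, were the 3 highest in Cdk6. Ccne2 did not follow that order beyond KO 2 and KO 3: WT 1 came next (9.84), and WT 3 was level with KO 1 (9.78 in each). All 10 neuronal markers had a difference below 0, from -0.029 (Map2) to -0.46 (Neurod1, on chromosome 2). Neurod1 alone of the 10 had separate ranges, with a limma adjusted p of 0.350. The summed linear signal of the 10 ran from 8898 to 11803 in KO-labelled and from 10017 to 11990 in WT-labelled heads. The summed signal of the 10 progenitor markers ran from 25901 to 27414 in KO-labelled and from 27255 to 29027 in WT-labelled heads. Vim and Fabp7, the brightest of them, weigh most in this sum. Of the progenitor markers, 8 of 10 had a difference below 0, where 55.4% of all genes did. Vim (-0.10, on chromosome 2) and Prom1 (-0.12) had separate ranges, where 12.3% of all genes did. Of the 7 patterning markers, 3 had a difference below 0. The forebrain genes Lhx2 (-0.33, on chromosome 2) and Emx2 (-0.32) had KO-labelled ranges below the WT-labelled ones, with adjusted p-values of 0.228 and 0.472 in limma. The part of these markers in the differences was not tested.

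**Figure D4:**
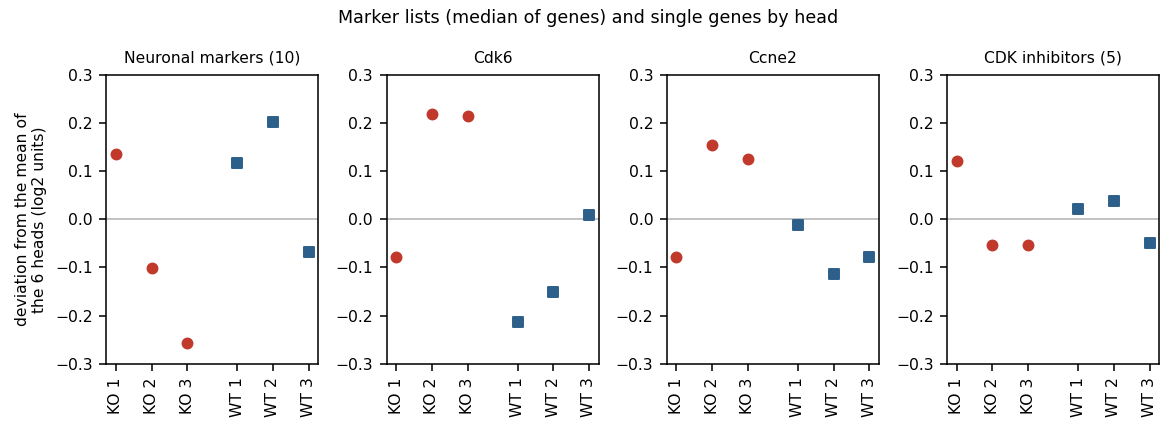
Deviation of each head from the mean of the 6 heads, in log2 units, for 10 neuronal markers (median of the genes), Cdk6, Ccne2 and 5 CDK inhibitor genes (median). Red circles are KO-labelled and blue squares WT-labelled heads. KO 2 and KO 3 are high in Cdk6 and Ccne2 and low in both lists, and KO 1 shows the opposite.

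Of the 6 members with an unadjusted p under 0.05, 3 lie on chromosome 2, the chromosome of Tasp1: Rbl1, Pcna and Gins1. Of the 35, 5 lie there, the others being E2f1 and Mcm10. Over all tested genes, 11.1% of those on chromosome 2 and 6.79% of those on other chromosomes stood at an unadjusted p under 0.05. The part of the chromosome 2 position in these 3 differences was not tested. Of the 30 members on other chromosomes, 3 stood at that threshold (Cdk6, Ccnd2 and Rrm2).

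A further 94 genes of the same processes were read from lists chosen alongside the members, and 89 were tested. Of these, 0 passed an adjusted p of 0.05 in limma, the median difference was -0.0059, 2 genes on the higher and 2 on the lower side stood at an unadjusted p under 0.05 (4.49%, where 7.13% of all genes did), and 10 had separate ranges (11.2%, where 12.3% of all genes did). The smallest p belonged to Timeless, which encodes a replication fork protection factor. Timeless read 8.70, 8.70 and 8.6 in KO-labelled heads and 8.86, 8.81 and 8.95 in WT-labelled heads, all KO-labelled heads being lower (difference -0.21, unadjusted p 0.0083, adjusted p 0.548). Mcm8, a relative of the ring subunits that acts in recombination and also lies on chromosome 2, differed by -0.20 (unadjusted p 0.025), with the KO-labelled range below. Wdhd1, which links the helicase to the primase-polymerase, differed by +0.12 (0.039), and Cad, the first enzyme of pyrimidine synthesis, by +0.15 (0.038).

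By list, origin recognition and licensing genes (12 tested) had a median of +0.032, 8 of them above 0, where 5267 of all 11802 genes were. Here Orc4, a subunit of the origin recognition complex on chromosome 2, had separate ranges at +0.11, and Gmnn, whose product geminin blocks CDT1, differed by -0.10 with overlapping groups. The other replisome, polymerase and clamp loader genes (30 tested) had a median of -0.0073 and those of nucleotide supply (13) one of -0.013. The remaining E2F, DREAM and RB kinase genes (20) had a median of -0.0048, and 0 of them stood at an unadjusted p under 0.05, with Cks1b, which encodes a CDK-binding subunit, at -0.12, the cyclin E degradation gene Fbxw7 at +0.12 and the S phase cyclin gene Ccna2 at +0.047. Replication-coupled chromatin genes (9) had a median of -0.014. Among CDK inhibitor genes (5 of 7 tested), the p27 gene Cdkn1b differed by -0.14 and the p15 gene Cdkn2b by -0.15, and the p57 gene Cdkn1c by +0.084. Cdkn1a had no probe set given to that gene alone and Cdkn2a was too dim (mean 6.42), so neither was tested. Cdkn2b alone had separate ranges, where 12.3% of all genes did, and 0 of the 5 stood at an unadjusted p under 0.05 in limma. Cdkn2b was dim, however, with group means on either side of the filter cut of 7.06 (KO 6.99, WT 7.15). Gmnn also lay close to that cut (KO mean 7.08, WT mean 7.19).

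**Figure D5:**
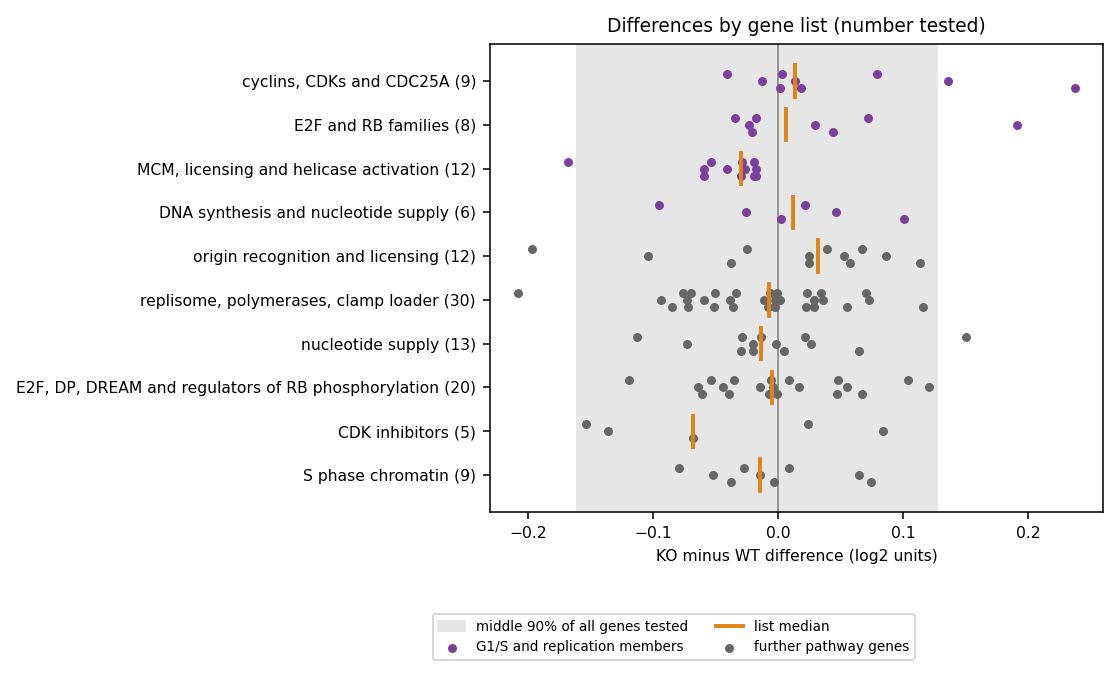
Differences between KO-labelled and WT-labelled heads, in log2 units, for the members by role (purple) and for further genes of the same processes (dark grey), with the number tested in brackets. Orange bars are list medians and the grey band holds the middle 90% of all tested genes, from -0.16 to 0.13. Cdk6, Rbl1, Ccne2 and Gins1 are the members outside the band.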

How the data were processed

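The authors deposited 1 log2 signal per probe set and array (35556 probe sets, 6 arrays). Expression Console and MAS5 are named per the submitters' processing notes, without versions, and the sources used here do not give background, scaling or summary steps. The values, from 2.73 to 14.4, were used as deposited. Of the probe sets, 21789 have 1 gene symbol, 1621 several and 12146 none in the table used, and 0 of those with several name a member. Of the single-symbol probe sets, the dimmest 40% by mean over the 6 heads (below 7.06) were dropped, and the brightest of each gene was taken. The limma 3.58.1 fit (R 4.3.3; lmFit, eBayes with trend) was two-sided, and p-values were adjusted by Benjamini and Hochberg's method over 11802 genes. Labels call the heads biological replicates. The number of arrays limits the precision.

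The members and all lists were chosen with earlier results of these data known. Named were all members and, per further list, up to 4 genes with the smallest p. Marker lists of mesenchyme, endothelium, erythroid cells, macrophages and surface ectoderm had medians of 0.0016, 0.0067, -0.13, -0.072 and -0.047. The labels do not say that replicate numbers pair heads, so no block was used. Heads of the same number did not deviate together (correlations -0.17, -0.11 and -0.21). Positive correlations stood at KO 1 with WT 2 (0.21), KO 2 with WT 3 (0.28) and KO 3 with WT 1 (0.27). Deviations were taken from the mean of each group of 3, so negative values for some heads force positive values for others. These correlations therefore cannot show a pairing. The fit was tested on simulated data. Alternatives were other filters, scalings, offsets, probe set rules, variance models and thresholds, the replicate block and each head left out. Chromosomes came from the GRCm38.p6 gene table. Figures used matplotlib 3.10.9.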

Additional observations from a re-analysis of the deposited data

How the results depend on the processing

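Over all genes, limma called 0 as reported, 2 with no filter, 1 with a 60% filter, 1 with quantile normalization, 3 with probe sets averaged per gene, 3 at an adjusted p under 0.1, and 0 to 6 with a head left out (6 without KO 1, 1 without WT 1). The members were among none of these, their smallest adjusted p in any setting being 0.233 (Cdk6, without KO 1). The count of members at an unadjusted p under 0.05, 6 as reported, was 3 with median centring, 2 without the mean-variance trend, 3 with the replicate block, 1 at an unadjusted p under 0.01, and 1 to 5 with a head left out (1 without KO 2 or KO 3, 3 without WT 2 or WT 3). Members with separate ranges, 7 as reported, were 3 with median centring. The matching counts over all genes were not computed for these settings. The median difference of the members was -0.044 with median centring, where that of all genes was -0.036. The replicate block called 0 genes, so it changed no call. No member passed in any setting, and 17 of the 35 kept their sign in every setting, among them Rbl1, Cdk6, Ccne2, Ccnd2, Pcna, Gins1 and Rrm2. The causes were not tested. With 3 heads a group, the median SE of a member's difference was 0.049, which limits what could be detected.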
